A study of Mus musculus with 14 samples.

Results

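The RNA levels of 10 endothelial genes were followed in mouse kidney at day 0, day 1 and day 3 of renal ischemia/reperfusion injury (IRI), the clamping and release of the kidney's blood flow that is a standard model of acute kidney injury (AKI). The 10 genes were taken by symbol from the 24411 genes counted in all 14 libraries, of which 14300 had enough reads to be tested, and all 10 were among those. Of these, 6 are genes of endothelial identity (Pecam1, Cdh5, Kdr, Emcn, Plvap and Ehd3) and 4 encode adhesion molecules that catch leukocytes on the vessel wall (Sele, Selp, Icam1 and Vcam1). There were 4 libraries at day 0, 5 at day 1 and 5 at day 3, each from whole kidney of male C57/B6 mice aged 8 weeks, with no transgene or drug in the labels. The labels give the time point alone, so whether the day 0 kidneys had a sham operation is not given in the sources used here, nor is it stated that each library is a separate animal, and the p-values below measure the spread between these libraries.

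Endothelium lines every vessel of the kidney, from arteries to the fenestrated capillaries of the glomerulus and the capillary net around the tubules. Under inflammatory signals such as TNF and interleukin 1, endothelial cells switch on selectins, which make passing leukocytes roll, and the immunoglobulin-type molecules ICAM-1 and VCAM-1, which hold them firmly through integrins. Much of this program is known to run through the transcription factor NF-kB. In whole-kidney RNA, fewer endothelial cells and less RNA of a gene per cell cannot be told apart.

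The tissue label was met by the defining genes of kidney. The 4 proximal tubule markers summed to between 9076 and 10591 CPM at day 0 (reads of a gene scaled to the TMM-adjusted total of its library), and the 4 injured tubule markers had a median sum of 111 CPM at day 0, 2841 CPM at day 1 and 2414 CPM at day 3. All 4 of the latter were called higher at day 1 and 3 of 4 at day 3. Libraries held 12485579 to 20476979 reads on genes, which sets the precision of low values such as those of Sele and Selp. The files of 5 libraries carry a number of 3 digits in their name and those of 9 a number of 1 digit, which splits day 1 into 2 and 3 libraries and day 3 into 3 and 2, while every day 0 library has 1 digit. The meaning of this number is not given, and it is treated here as a possible technical batch. Before the results, 2 libraries of day 3 stand apart: of the 6 identity genes, day 3 replicate 5 held the highest day 3 level of 5, and replicate 2 the lowest level of all 6. Of 20 other pan-endothelial genes, 15 were highest in replicate 5 and 15 were lowest in replicate 2.

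At day 0 each identity gene stood above each adhesion gene in level per length, Icam1 being the nearest below. On the scale of mean CPM per kilobase of exon, Plvap stood first at 61.8 ± 9.49 (SD, n = 4), followed by Emcn at 12.6 ± 3.01, Pecam1 at 7.71 ± 1.42, Cdh5 at 6.12 ± 0.771, Ehd3 at 5.35 ± 0.719 and Kdr at 5.06 ± 0.0765. The neighbours from Pecam1 to Kdr overlapped in their library values, whereas Plvap and Emcn were separate from those below them. Icam1 followed at 3.45 ± 0.345 and Vcam1 at 0.988 ± 0.283 CPM per kilobase, and Selp and Sele closed the order at about 0.0104 each. At day 1 the level of Icam1 per kilobase, 17.4 ± 2.78 (SD, n = 5), overlapped that of Cdh5, 17.8 ± 7.07, and of Pecam1, 12.5 ± 1.99. At day 3 every gene of the order overlapped its neighbour.

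**Figure D1:**
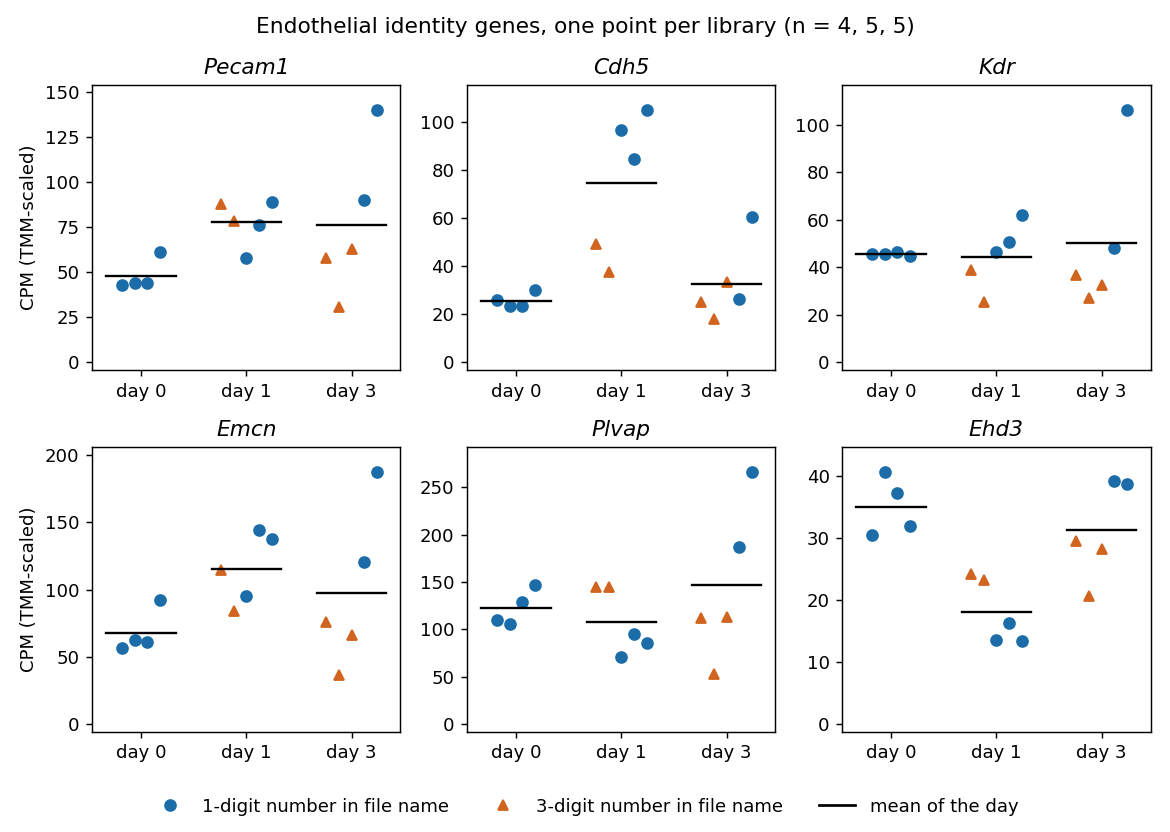
TMM-scaled CPM (vertical axis, linear) of the 6 identity genes by day, with 1 point for each library, circles for a 1-digit and triangles for a 3-digit number in the file name, and a line at the mean of the day (n = 4, 5 and 5). Every day 1 library lay above every day 0 library for Cdh5 and below for Ehd3, and the day 3 values of Pecam1, Emcn and Plvap spread from below the lowest to above the highest of day 0.

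The first comparison asked what became of endothelial identity at day 1 of injury. Identity genes did not move as a block: Cdh5 rose, Ehd3 fell, and Pecam1, Kdr, Emcn and Plvap did not pass the test. Adhesion genes moved in 1 direction, with Sele, Selp and Icam1 up and Vcam1 higher without passing the test. In all, 5 of the 10 genes passed at day 1 (edgeR's quasi-likelihood test, Benjamini-Hochberg adjusted p under 0.05), which is to be read against 42.1% of all 14300 genes tested. By direction, 4 of 10 rose and 1 fell, with 23.3% and 18.7% of all genes doing so.

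Cdh5 (chromosome 8, 104101625 to 104144511 of GRCm38, plus strand, a gene of 12 exons) encodes VE-cadherin, the adhesion molecule of the junctions between endothelial cells. Its level was 25.9, 23.4, 23.3 and 30.2 CPM in the 4 day 0 libraries and 49.4, 37.6, 96.9, 84.7 and 105 CPM in the 5 day 1 libraries. All 5 lay above all 4, as did 21.5% of all genes, and 42% of all genes were separated in one direction or the other. Mean Cdh5 was 2.90 times the day 0 mean, a log2 fold change of 1.54 ± 0.35 (SE) with an adjusted p of 0.00368. The gain was smaller in the 3-digit pair (43.5 ± 8.31 CPM) than in the 3 libraries of 1 digit (95.5 ± 10.2 CPM).

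Ehd3 (chromosome 17, 73804134 to 73832094, plus strand, 6 exons) encodes an EH-domain protein of endocytic traffic that is enriched in the glomerular endothelium. It measured 30.5, 40.7, 37.2 and 31.9 CPM at day 0 and 24.2, 23.2, 13.6, 16.2 and 13.4 CPM at day 1. Every day 1 library lay below every day 0 library, as in 20.5% of all genes. The mean fell to 0.517 of day 0, with a log2 fold change of -0.95 ± 0.22 and an adjusted p of 0.00415. Podocyte markers, the other cell type of the glomerular filter, summed to a median of 309.6 CPM at day 0 and 364 CPM at day 1, and 0 of the 4 passed the edgeR test at day 1. By number format at day 1, 2 of these 4 were higher and 2 lower in the 3-digit pair, against 18.6% and 16.4% of all genes. Within the 1-digit libraries 1 was higher and 1 lower than at day 0, against 28.9% and 29.6% of all genes. Their part in the Ehd3 result was not tested.

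Pecam1 (chromosome 11, 106654217 to 106750628, minus strand), which encodes the junctional molecule CD31, held 42.9, 43.9, 44.03 and 61.2 CPM at day 0 and 87.7, 78.4, 58.1, 76.2 and 89.0 CPM at day 1. Only day 1 replicate 3 fell within the day 0 range, and the log2 difference of 0.70 ± 0.32 had an adjusted p of 0.0884. Emcn (chromosome 3, 137341067 to 137432185, plus strand), the sialomucin endomucin of veins and capillaries, held 56.3, 62.3, 61.1 and 92.1 CPM at day 0 and 115, 83.9, 95.2, 144 and 138 CPM at day 1. The ranges met only at day 0 replicate 4 and day 1 replicate 2, with a log2 difference of 0.76 ± 0.36 and an adjusted p of 0.102. Both genes passed the test when the fit held the 2 days alone, with adjusted p of 0.00586 for Pecam1 and 0.0127 for Emcn, and when day 3 replicate 2 (0.0297 and 0.0445) or replicate 5 (0.0287 and 0.0394) was left out. They also passed edgeR with number format as a term (0.94, adjusted p 0.0215, and 1.11, 0.00638). In all, Pecam1 passed in 2 of 14 fits with a library left out and 4 of 11 other settings, and Emcn in 2 of 14 and 3 of 11.

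Kdr (chromosome 5, 75932827 to 75978458, minus strand) encodes the main VEGF receptor of endothelium. It was even across the 4 day 0 libraries at 45.7, 45.8, 46.5 and 44.8 CPM and ran 38.9, 25.2, 46.4, 50.5 and 61.9 CPM at day 1. Its mean differed by -0.04 ± 0.34 on the log2 scale, with an adjusted p of 0.937. Plvap (chromosome 8, 71497765 to 71511752, minus strand), which encodes the protein of the diaphragms of fenestrated endothelium, held 110.2, 106, 129 and 147 CPM at day 0 and 145, 144, 71.1, 95.4 and 86.0 CPM at day 1. The 3-digit pair of day 1 lay inside the day 0 range and the other 3 libraries below it, and the log2 difference of -0.18 ± 0.36 had an adjusted p of 0.703. For both genes the pooled mean joins libraries that differ by number format.

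Among other genes of the vessel wall, 8 of 20 pan-endothelial genes rose at day 1 and 1 fell, with a median log2 fold change of 0.25 against 0.01 over all genes, of which 23.3% rose and 18.7% fell. Within the 1-digit libraries 9 of the 20 were higher and 6 lower, against 28.9% and 29.6% of all genes. Ecscr, an endothelial regulator of migration, rose most, from 5.10 ± 0.970 to 18.1 ± 4.34 CPM (log2 1.83, adjusted p 0.00101), and Tek, the angiopoietin receptor TIE2, fell from 41.6 ± 3.19 to 14.5 ± 9.34 CPM (log2 -1.52, adjusted p 0.00652). Of 10 tested genes of capillary subtypes 4 rose and 4 fell: Igfbp3 rose from 95.8 ± 8.97 to 424 ± 184 CPM and Slc14a1, the urea transporter of the descending vasa recta, fell from 8.80 ± 1.59 to 2.13 ± 1.62 CPM. Of 12 tested arterial, venous and lymphatic genes 2 rose and 2 fell, among them Mmrn1, which rose from 0.817 ± 0.302 to 2.14 ± 1.12 CPM, and Prox1, the lymphatic transcription factor, which fell from 7.79 ± 0.774 to 0.748 ± 0.352 CPM. Of 11 genes of VEGF and angiopoietin signalling 3 rose and 3 fell. The ligand gene Pgf rose from 0.329 ± 0.0747 to 5.13 ± 2.26 CPM and Angpt1, the ligand of TIE2, fell from 15.1 ± 2.94 to 6.17 ± 1.76 CPM. Within the 1-digit libraries the capillary genes gave 4 higher and 5 lower, the arterial, venous and lymphatic genes 1 and 4, and VEGF and angiopoietin signalling 4 and 4. The cell of origin of these transcripts was not tested.

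**Figure D2:**
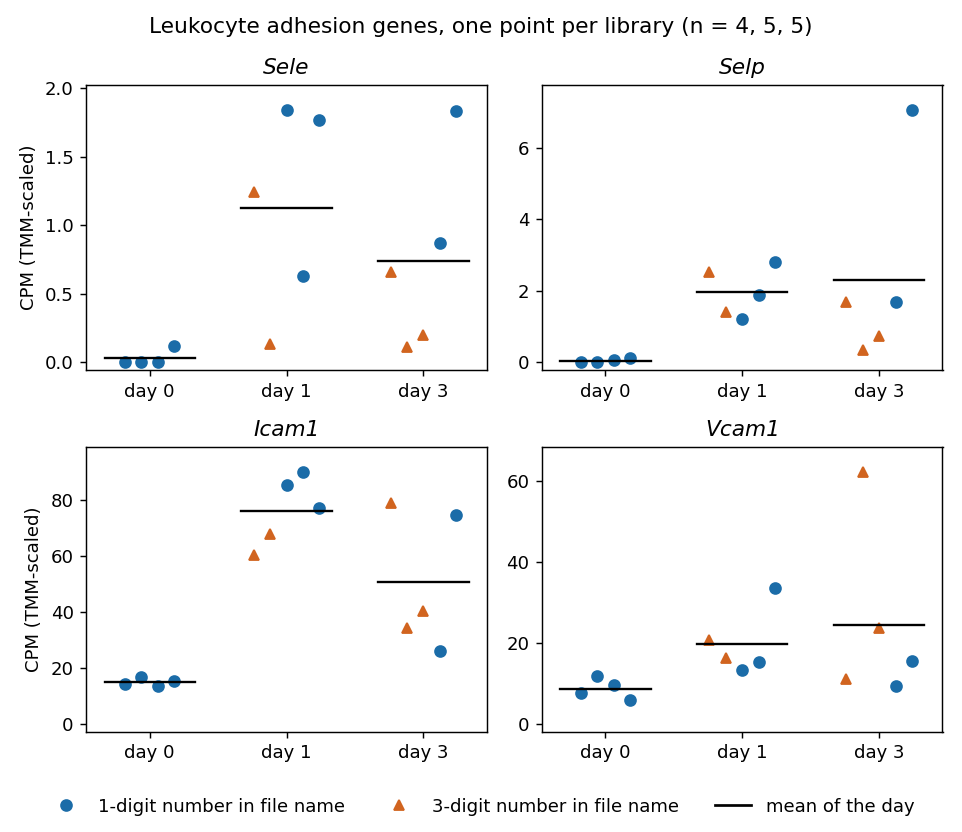
TMM-scaled CPM (vertical axis, linear) of the 4 adhesion genes by day, with 1 point for each library, circles for a 1-digit and triangles for a 3-digit number in the file name, and a line at the mean of the day (n = 4, 5 and 5). Sele and Selp sat at or near 0 in all 4 day 0 libraries, Icam1 was above day 0 in all 10 later libraries, and 1 day 3 library carried the highest Vcam1 value at 62.2 CPM.

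The adhesion genes were read next. E-selectin and P-selectin lie close together on chromosome 1 of GRCm38, Sele at 164048234 to 164057677 and Selp at 164115264 to 164150026, both on the plus strand. Icam1 lies on chromosome 9 at 21015985 to 21028817 (plus strand) and Vcam1 on chromosome 3 at 116109949 to 116129688 (minus strand). RefSeq promoter windows of GRCm38.p6, from 250 bases before to 50 bases after the start, matched 6 of the 10 genes: Kdr, Emcn, Ehd3, Sele, Selp and Icam1. The RefSeq start need not be the first base of the gene span given here: the Ehd3 window lies wholly inside that span. The 3 adhesion genes that rose at both times are printed with Ehd3, the identity gene that moved the other way at day 1, 5′ to 3′ along the gene's own strand. Capitals mark matches to GGNNNTTCC, an NF-kB type motif, on either strand.
Sele: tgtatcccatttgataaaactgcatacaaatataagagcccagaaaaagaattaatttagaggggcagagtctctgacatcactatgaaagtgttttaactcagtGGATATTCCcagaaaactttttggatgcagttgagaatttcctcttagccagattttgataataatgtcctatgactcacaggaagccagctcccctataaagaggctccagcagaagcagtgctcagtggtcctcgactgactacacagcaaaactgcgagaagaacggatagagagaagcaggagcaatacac
Selp: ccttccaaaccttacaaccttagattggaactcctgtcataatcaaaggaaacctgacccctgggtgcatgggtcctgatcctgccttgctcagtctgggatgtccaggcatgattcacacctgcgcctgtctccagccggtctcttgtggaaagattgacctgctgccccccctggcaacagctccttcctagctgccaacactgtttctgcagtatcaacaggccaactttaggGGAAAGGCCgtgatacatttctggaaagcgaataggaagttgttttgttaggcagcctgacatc
Icam1: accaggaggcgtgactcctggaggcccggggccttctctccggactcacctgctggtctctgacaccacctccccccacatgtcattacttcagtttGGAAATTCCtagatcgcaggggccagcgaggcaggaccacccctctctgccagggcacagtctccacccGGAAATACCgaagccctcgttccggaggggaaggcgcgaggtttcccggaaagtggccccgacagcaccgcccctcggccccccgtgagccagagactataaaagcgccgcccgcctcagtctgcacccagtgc
Ehd3: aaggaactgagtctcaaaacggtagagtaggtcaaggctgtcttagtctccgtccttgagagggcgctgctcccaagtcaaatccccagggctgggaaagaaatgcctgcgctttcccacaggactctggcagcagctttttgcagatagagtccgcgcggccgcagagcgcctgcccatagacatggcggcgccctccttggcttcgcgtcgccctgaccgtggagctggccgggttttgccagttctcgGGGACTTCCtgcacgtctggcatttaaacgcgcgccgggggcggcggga
The windows are chr1:164047984-164048283 for Sele, chr1:164115014-164115313 for Selp, chr9:21015690-21015989 for Icam1 and chr17:73804591-73804890 for Ehd3, all on the plus strand. With the start at position 1, the Sele match runs from -145 to -137 and the Selp match from -14 to -6 on the opposite strand. The Icam1 matches run from -153 to -145, where the letters fit the motif on both strands, and from -84 to -76 on the opposite strand. The Ehd3 window holds a match from 2 to 10, overlapped by an ETS type match (AGGAAG, opposite strand) from 6 to 11, while the Kdr and Emcn windows hold no NF-kB type match. ETS type letters also occur in the Emcn, Sele and Selp windows. Of 32851 promoter windows of the same length, 18.5% hold the NF-kB type letters and 35.4% the ETS type letters, and a match is a description, not a site.

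Sele, encoding E-selectin, was nearly silent at day 0, with 0, 0, 0 and 2 reads in the 4 libraries. At day 1 it had 23, 3, 27, 11 and 22 reads, or 1.24, 0.136, 1.84, 0.629 and 1.77 CPM. All 5 lay above day 0, though replicate 2 by little. Pooled over libraries, Sele was 33.7 times its day 0 level per read sequenced, with an exact 95% counting interval of 9.05 to 283 that covers counting error only, and the edgeR test gave an adjusted p of 0.0047.

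Selp, encoding P-selectin, had 0, 0, 1 and 2 reads at day 0 and 47, 31, 18, 33 and 35 reads at day 1, or 2.53, 1.41, 1.23, 1.89 and 2.82 CPM. The days did not overlap. The pooled ratio was 42.8 with a counting interval of 14.4 to 209.9, and the adjusted p was 0.00146. P-selectin is also stored by platelets, and of 3 tested platelet genes 2 rose at day 1, among them Pf4, from 0.403 ± 0.179 to 4.14 ± 2.94 CPM (log2 3.33, adjusted p 0.000288). The 5 listed platelet genes summed to 5.46 to 6.70 CPM at day 0 and 7.45 to 24.2 CPM at day 1, with Gp1ba at 0 in every day 0 library, and their part in the Selp result was not tested. Selp overlaps 2 genes on the opposite strand, and the strand-aware counts used here hold 342 Selp reads against 210 in the unstranded column.

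Icam1, the receptor of leukocyte beta-2 integrins, was 14.3, 16.9, 13.5 and 15.4 CPM at day 0 and 60.3, 67.9, 85.1, 89.8 and 77.1 CPM at day 1. All 5 day 1 libraries lay far above day 0. The mean was 5.06 times day 0, with a log2 fold change of 2.34 ± 0.30 and an adjusted p of 7.79e-05. Injured tubule cells and leukocytes are known to make ICAM-1 as well. Of the 4 injured tubule markers all 4 rose at day 1, Krt20 most, from 0.862 ± 1.13 to 709 ± 360.3 CPM, and 3 of 5 leukocyte markers rose, Coro1a most, from 4.49 ± 1.93 to 10.9 ± 3.45 CPM. Their part in the Icam1 result was not tested.

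Vcam1, the receptor of the integrin VLA-4, was 7.59, 11.8, 9.60 and 6.05 CPM at day 0 and 20.7, 16.3, 13.3, 15.3 and 33.6 CPM at day 1. The days did not overlap, yet the log2 difference of 1.17 ± 0.49 had an adjusted p of 0.0686. DESeq2's Wald test gave 0.0324, edgeR without day 3 replicate 2 gave 0.0117, and edgeR on the 2 days alone gave 0.0098. In all, Vcam1 passed in 1 of 14 fits with a library left out and in 3 of 11 other settings.

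The leukocyte partners and the inducers of these molecules were read from separate lists. At day 1, where 23.3% of all genes rose and 18.7% fell, 5 of 10 counter-receptor genes rose and none fell by the edgeR test, among them Cd44, Itgam and Selplg, the last the P-selectin ligand PSGL-1. Cd44, a hyaluronan receptor that also binds E-selectin, rose most, from 1.95 ± 0.668 to 23.5 ± 7.31 CPM (log2 3.59, adjusted p 4.77e-06). All 4 neutrophil markers rose, from a summed 1.26 to 2.07 CPM at day 0 to 42.6 to 175 CPM at day 1, S100a9 most, from 0.492 ± 0.143 to 49.9 ± 33.6 CPM. Of 11 tested genes of the inflammatory inducers and NF-kB, 10 rose, with a median log2 fold change of 1.94 against 0.01 over all genes. Il1b, interleukin 1 beta, rose most at log2 2.89, from 0.715 ± 0.200 to 5.37 ± 2.60 CPM. Of 7 tested genes of other endothelial adhesion molecules 2 rose and 1 fell, Mcam from 9.995 ± 0.475 to 52.7 ± 8.85 CPM and Alcam from 35.2 ± 9.13 to 23.2 ± 3.95 CPM, so that Mcam was raised and Alcam lowered within 1 list.

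**Figure D3:**
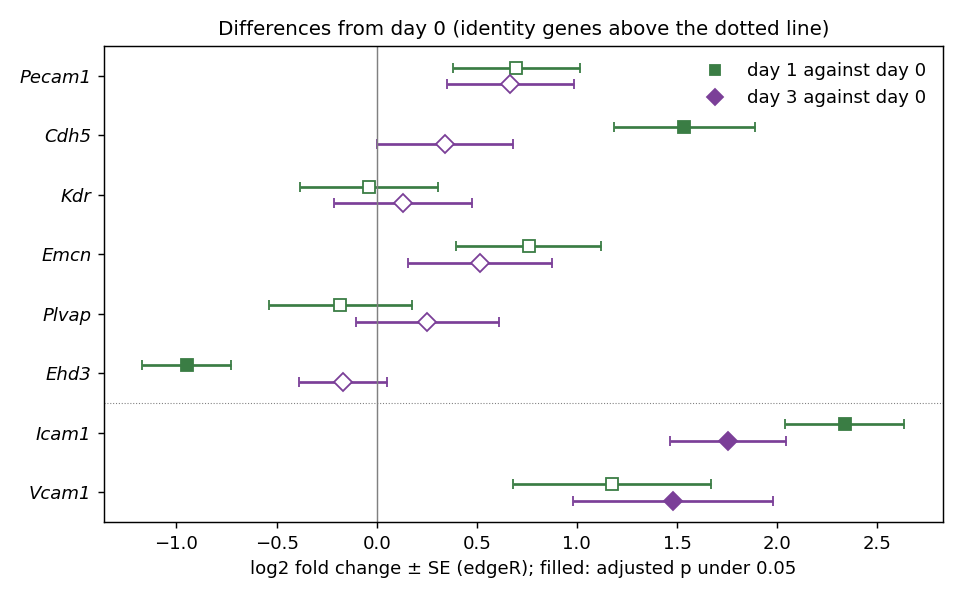
Log2 fold change against day 0 (horizontal axis, points with bars of 1 SE from edgeR) for the 8 genes with more than 3 reads over the day 0 libraries, squares for day 1 and diamonds for day 3, filled where the adjusted p was under 0.05. Of the identity genes above the dotted line, Cdh5 and Ehd3 are filled at day 1 and none at day 3, while Icam1 is filled at both times.

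At day 3 the calls against day 0 lay among the adhesion genes. Of 6 identity genes 0 passed the edgeR test against day 0, with 0 at an unadjusted p under 0.05 as well, and DESeq2 also called 0, with 1 at an unadjusted p under 0.05. With number format as a term in the fit, Pecam1 (0.90, adjusted p 0.0303), Cdh5 (0.87, 0.0156) and Emcn (0.89, 0.0258) were called higher, and 5 identity genes were within the 1-digit libraries, as given with the formats. That term assumes the same format difference at day 1 and day 3, whereas the Pecam1 format difference changed between them by -1.34 (adjusted p 0.0351 by edgeR). All 4 adhesion genes were called higher, although Sele and Vcam1 overlapped day 0. Together this is 4 of 10, against 33.3% of all genes tested (19.5% higher and 13.8% lower). This comparison uses the same 4 day 0 libraries as the one at day 1.

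Plvap, Emcn and Pecam1 spread widely among the day 3 libraries. Plvap ran 112, 53.2, 114, 187 and 266 CPM, and Emcn 76.3, 36.4, 65.9, 121 and 188 CPM. Pecam1 ran 58.1, 30.7, 62.8, 90.1 and 140.0 CPM. In all 3 genes replicate 2 lay below every day 0 library and replicate 5 above every one. Their log2 differences from day 0 were 0.25 ± 0.36 for Plvap, 0.52 ± 0.36 for Emcn and 0.67 ± 0.32 for Pecam1, with adjusted p of 0.605, 0.277 and 0.117. Without replicate 5 the Pecam1 difference was 0.35, and without replicate 2 it was 0.87 with an adjusted p of 0.0141.

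Kdr ran 36.7, 27.2, 32.4, 48.3 and 106 CPM at day 3. Its 3 libraries of 3 digits lay below the narrow day 0 range and the other 2 above it. The log2 difference of 0.13 ± 0.34 (adjusted p 0.790) turned to -0.33 without replicate 5. Cdh5 ran 25.1, 17.9, 33.4, 26.5 and 60.3 CPM, 1 library below the day 0 range, 2 inside it and 2 above. Its log2 difference of 0.34 ± 0.34 had an adjusted p of 0.456, and the difference was 0.01 without replicate 5. Ehd3 was 29.5, 20.6, 28.3, 39.1 and 38.7 CPM, overlapping day 0 with a log2 difference of -0.17 ± 0.22 and an adjusted p of 0.578.

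Between the 2 injury times these last genes were the ones to pass. Cdh5 fell from 74.7 ± 29.7 CPM at day 1 to 32.6 ± 16.4 CPM at day 3 (SD, n = 5 each), a log2 fold change of -1.20 ± 0.32 with an adjusted p of 0.0244. Ehd3 rose from 18.1 ± 5.22 to 31.2 ± 7.80 CPM, with a log2 fold change of 0.78 ± 0.21 and an adjusted p of 0.0245. That is 2 of 10 genes against 15.9% of all genes, 8.52% higher and 7.39% lower. None of the adhesion genes passed between these days by edgeR or DESeq2, each with 1 at an unadjusted p under 0.05, Icam1 having a log2 difference of -0.58 ± 0.26 and an adjusted p of 0.137, which was 0.0445 without day 3 replicate 5. For each of the 10 the libraries of the days overlapped, as they did in all but 7.61% of all genes. Neither call held when the fit was made on these days alone, with adjusted p of 0.0661 for Cdh5 and 0.0669 for Ehd3 by edgeR, and leaving out single libraries ended the Cdh5 call in 5 of 14 cases (day 1 replicate 3, 4 or 5, day 3 replicate 1 or 4) with values from -1.56 to -1.04, and the Ehd3 call in 4 of 14 (day 1 replicate 3, 4 or 5, day 3 replicate 4) with values from 0.67 to 0.90.

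Of the adhesion genes at day 3, Icam1 ran 78.9, 34.1, 40.3, 26.0 and 74.5 CPM, all above day 0, as in 16.9% of all genes. Its mean was 3.38 times day 0, with a log2 fold change of 1.76 ± 0.29 and an adjusted p of 0.000704. Selp had 33, 6, 15, 25 and 96 reads, or 1.68, 0.338, 0.743, 1.68 and 7.05 CPM, all above day 0. Its pooled ratio to day 0 was 45.2, with a counting interval of 15.2 to 221 and an adjusted p of 0.00156, and replicate 5 alone held 96 of its 175 day 3 reads. Without that library the fitted difference stayed past the test, at an adjusted p of 0.00134, with the fitted log2 value at 4.42 in place of 5.44. Sele had 13, 2, 4, 13 and 25 reads at day 3, and replicate 2, at 0.113 CPM, did not exceed day 0 replicate 4, at 0.121 CPM. The pooled ratio was 22.1 with a counting interval of 5.84 to 187, and the adjusted p was 0.0140. Replicate 5 held 25 of its 57 day 3 reads, and without it the fitted log2 value was 3.64 in place of 4.28, at an adjusted p of 0.0335. With day 0, all of 1 digit, beside the 3-digit libraries alone the Sele call ended, at an adjusted p of 0.0861 by edgeR.

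Vcam1 at day 3 ran 11.2, 62.2, 23.8, 9.35 and 15.6 CPM, with replicates 1 and 4 inside the day 0 range. Replicate 2, in which every identity gene was at its day 3 low, held the highest Vcam1 of all 14 libraries. The log2 fold change was 1.48 ± 0.50 with an adjusted p of 0.0341, and without replicate 2 it was 0.78 with an adjusted p of 0.0859. It was 1.41 (0.0856) without day 0 replicate 1, 1.53 (0.0692) without day 0 replicate 3, 1.34 (0.0907) without day 0 replicate 4 and 1.46 (0.0522) without day 3 replicate 3, the adjusted p of edgeR in parentheses. A fit of the 2 days alone gave 1.46 (0.0563), and one with number format as a term 1.03 (0.156), and the replicate block 1.20 (0.0570). Leaving out day 3 replicates 2 and 5 together, chosen after seeing the data, gave 0.72 (0.164). In day 3 replicate 2 the injured tubule markers summed to 908 CPM, the lowest of day 3, and the proximal tubule markers to 8256 CPM, the highest. VCAM-1 is known from tubule cells that have failed to recover, and the part of tubules in this value was not tested.

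In the lists, day 3 had 2 of 20 pan-endothelial genes higher and none lower by edgeR, against 19.5% and 13.8% of all genes. Within the 1-digit libraries 8 of these 20 were higher, against 28.6% of all genes, and by format at day 3 the 3-digit libraries had 8 of 20 lower, against 8.22%. In the pooled comparison Ecscr was again the gene with the largest rise at 16.0 ± 9.07 CPM. Of 10 tested capillary genes 2 rose and 1 fell, Gpihbp1, the capillary anchor of lipoprotein lipase, rising from 8.78 ± 3.18 to 44.8 ± 43.7 CPM and Igfbp5 falling from 547 ± 61.1 to 136 ± 26.4 CPM. Arterial, venous and lymphatic genes gave 1 higher and 2 lower of 12, with Prox1 at 1.37 ± 0.506 CPM. VEGF and angiopoietin signalling gave 1 higher and 4 lower of 11, Pgf at 2.25 ± 2.22 CPM and Vegfb falling from 48.4 ± 7.78 to 21.9 ± 2.94 CPM, a set in which the ligand genes Vegfa, Vegfb, Angpt1 and Angpt2 were the lower ones. Counter-receptors rose in 7 of 10, Itgam, the alpha chain of Mac-1, most, from 1.04 ± 1.12 to 26.1 ± 10.2 CPM (log2 4.64, adjusted p 0.0002). Inducers and NF-kB genes rose in 8 of 11, Il1b at 5.99 ± 5.39 CPM, and 2 of 7 other endothelial adhesion molecules rose, Mcam at 46.6 ± 35.7 CPM. Among markers of other cells, the 4 neutrophil genes summed to 19.1 to 346 CPM, S100a8 rising from 0.268 ± 0.190 to 43.1 ± 54.7 CPM. The 4 fibroblast and pericyte genes summed to 165 to 342 CPM, against 71.2 to 82.1 CPM at day 0, with 3 of 4 higher and Col1a1 at 98.7 ± 43.2 CPM. Pdgfrb, the pericyte marker, was the 1 gene of that list called at day 1, where it rose from 23.0 ± 2.68 to 66.1 ± 16.1 CPM. Of 3 smooth muscle markers 2 rose at both times, Tagln from 24.9 ± 3.80 to 155 ± 79.6 and 242 ± 198 CPM. Synpo was the 1 podocyte marker to rise at day 3, from 30.2 ± 3.30 to 52.2 ± 18.5 CPM, and Lrp2 the 1 proximal tubule marker to fall in the pooled comparison, from 3247 ± 148 to 992 ± 1001 CPM. Lcn2 rose from 2.24 ± 0.696 to 1777 ± 1383 CPM and Pf4 to 7.67 ± 2.72 CPM, with platelet genes summing to 11.3 to 24.1 CPM and the 5 leukocyte genes to 45.1 to 84.9 CPM. Within the 1-digit libraries at day 3 the capillary genes gave 5 higher and 1 lower, the arterial, venous and lymphatic genes 3 and 2, VEGF and angiopoietin signalling 6 and 3, and 3 of the 4 proximal tubule markers were lower, against 28.6% and 25.1% of all genes. The part of these cells in the day 3 values of the 10 genes was not tested.

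To set the genes against each other without any scaling between libraries, the reads of each were divided by the Cdh5 reads of the same library (0.5 added to both), and the mean log2 ratios of the days were compared by a two-sided exact permutation test. In all 27 such differences were tested, 9 genes by 3 comparisons, and 10 passed at an adjusted p of 0.0429, the smallest this family gave. With any 1 library left out none of the 10 passed, at adjusted p of 0.0612 or more, while each kept its direction, and fewer libraries raise the smallest p the permutations allow. The smallest p that 4 against 5 libraries allow is 0.0159, and 5 against 5 allow 0.00794.

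At day 1, Icam1 gained on Cdh5 by 0.89 on the log2 scale and Selp by 3.58, even though Cdh5 itself rose. Icam1 reads were 55.2%, 72.4%, 57.7% and 51.0% of Cdh5 reads at day 0 and 122%, 181%, 87.8%, 106% and 73.5% at day 1, all 5 above all 4. Against Cdh5 the log2 ratio differed by -1.53 for Kdr, -1.66 for Plvap and -2.43 for Ehd3. Ehd3 reads went from 118%, 174%, 159.6% and 106% of Cdh5 reads to 49.0%, 61.7%, 13.99%, 19.2% and 12.8%. At day 3, Icam1 was up by 1.40, Selp by 4.37 and Sele by 3.30 against Cdh5 relative to day 0, while no identity gene passed. Day 0 held 3 Selp and 2 Sele reads in all, and these sizes depend on the 0.5 added to each count. With 2 added Selp differed by 2.23 at day 1 and 3.07 at day 3, and Sele by 1.93 at day 3, still past the test. Between day 1 and day 3 the ratio to Cdh5 rose by 1.26 for Kdr and 2.00 for Ehd3 in log2 units, each with an exact p of 0.00794. Cdh5 itself fell between these days, whereas the level of Kdr differed by 0.17 ± 0.32 (adjusted p 0.752 by edgeR).

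These ratios depend on the gene chosen as the reference. Tie1, another pan-endothelial receptor gene, was 27.6 ± 0.869 CPM at day 0 and 20.3 ± 3.39 CPM at day 1, a log2 difference of -0.44 with an adjusted p of 0.168. Relative to Tie1, Kdr and Plvap no longer fell at day 1, with differences of 0.36 and 0.23, and the day 3 against day 1 difference of Kdr was -0.56. The Ehd3 difference at day 1 was -0.53 with Tie1 (adjusted p 0.033 by the exact permutation test) in place of -2.43, and its gain between day 1 and day 3 was 0.19 (0.429) in place of 2.00. The gains of Icam1 and Selp at day 1 and of Icam1, Selp and Sele at day 3 kept their direction with Tie1. Pecam1, Emcn and Vcam1, not called against Cdh5 at day 1, passed as higher against Tie1, at 1.155, 1.21 and 1.59 (adjusted p 0.033 each, exact permutation test). In the 1-digit libraries alone the Cdh5 ratios kept their direction as well at day 1, where the smallest p that 3 against 4 libraries allow is 0.0571.

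**Figure D4:**
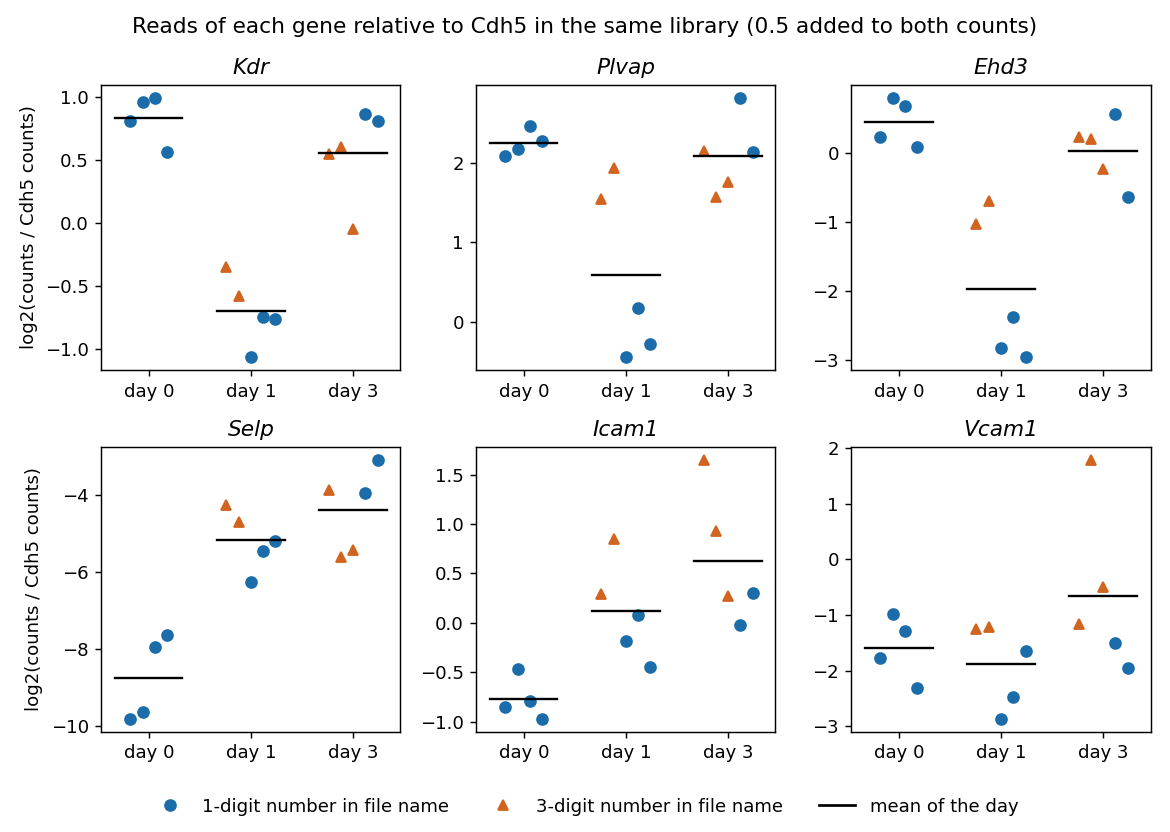
Log2 ratio of each gene's reads to Cdh5 reads in the same library (vertical axis, 0.5 added to both counts) by day for 6 genes, with 1 point for each library, circles for a 1-digit and triangles for a 3-digit number in the file name, and a line at the mean of the day. At day 1 the mean ratio differed from day 0 by -2.43 for Ehd3 and 0.89 for Icam1, and Selp stayed above day 0 at both later times.

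Within a day, libraries with 3-digit and 1-digit numbers differed. At day 1, 3 of 6 identity genes and none of the adhesion genes differed by number format in the edgeR fit, against 35% of all genes tested (18.6% higher and 16.4% lower), with 1 identity gene more and no adhesion gene at an unadjusted p under 0.05, and DESeq2 called 4 identity genes and no adhesion gene. Cdh5 was lower in the 3-digit pair, at a log2 difference of -1.14 ± 0.31 (adjusted p 0.0131), whereas Plvap was higher by 0.78 ± 0.27 (0.0406) and Ehd3 by 0.72 ± 0.18 (0.0077). Leaving out day 1 replicate 2 ended the Cdh5 call (-0.95, adjusted p 0.132), and the Plvap call ended without day 0 replicate 1 or 3 or any single day 1 library, with values from 0.67 to 0.88. Kdr, at a log2 difference of -0.72 (0.0562), was called without day 1 replicate 1 (-1.08) and without day 3 replicate 4 or 5 (-0.72 and -0.73). Where leaving out a library left 1 of a format within a day, here and at day 3, the fit assumed that it varied like the other groups. Plvap was 145 and 144 CPM in the 3-digit pair and 71.1, 95.4 and 86.0 CPM in the others. The same pair had 2267 to 2966 CPM of proximal tubule markers against 6616 to 10431 CPM in the 1-digit libraries, and 314 to 387 CPM of smooth muscle markers against 95.9 to 161 CPM. Injured tubule markers summed to 5219 to 5559 CPM in the pair and 885 to 2841 CPM in the others, and the part of these cells was not tested.

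At day 3, 6 of the 10 genes were lower in the 3-digit libraries, against 8.22% of all genes lower and 18.5% in either direction. Kdr fell short by a log2 difference of -1.27 ± 0.27 (adjusted p 0.0101), Pecam1 by -1.19 ± 0.28 (0.0165), Emcn by -1.37 ± 0.31 (0.0130), Plvap by -1.29 ± 0.27 (0.0102), Ehd3 by -0.57 ± 0.17 (0.0368) and Selp by -2.22 ± 0.69 (0.0412). Cdh5 differed by -0.77 with an adjusted p of 0.0853, and Icam1 differed by 0.03 with an adjusted p of 0.966. The 6 calls ended without replicate 5, 1 of the 2 libraries with 1 digit. That leaves 1 library of the format, so that the end of the calls cannot be told apart from the smaller group. All 6 differences kept their direction, at -1.03 for Plvap and Emcn, -0.87 for Selp, -0.85 for Pecam1, -0.61 for Kdr and -0.60 for Ehd3. The Ehd3 call also ended without day 0 replicate 3 or day 3 replicate 2, 3 or 4, and that of Selp without day 0 replicate 1, 2 or 3, day 1 replicate 4 or 5 or day 3 replicate 2 or 3. Conversely, Cdh5 was called without day 3 replicate 4 (-1.24, adjusted p 0.0109), and Sele (-3.04, 0.0387) and Vcam1 (1.78, 0.0192) without day 3 replicate 1. In the 1-digit pair the smooth muscle markers summed to 594 to 839 CPM and the injured tubule markers to 3417 to 4545 CPM, against 153 to 255 CPM and 908 to 2414 CPM in the 3-digit libraries. Proximal tubule markers summed to 1568 to 1673 CPM in the 1-digit pair and 2927 to 8256 CPM in the others, and the part of these cells was not tested.

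The difference by format was itself unlike between the days for 3 genes, against 17.6% of all genes, and in each towards lower values, as in 8.45% of all genes. Day 3 minus day 1 it was -1.34 ± 0.40 for Pecam1 (adjusted p 0.0351), -2.07 ± 0.39 for Plvap (0.00385) and -1.29 ± 0.25 for Ehd3 (0.00422), so that Plvap and Ehd3 were higher in the 3-digit libraries at day 1 and lower in them at day 3. Without day 3 replicate 1 Selp was called as well (-2.98, 0.0448), and without day 3 replicate 4 Kdr (-1.002, 0.0362), while the Pecam1 call ended without any of day 1 replicates 1 to 4 or day 3 replicate 5.

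**Figure D5:**
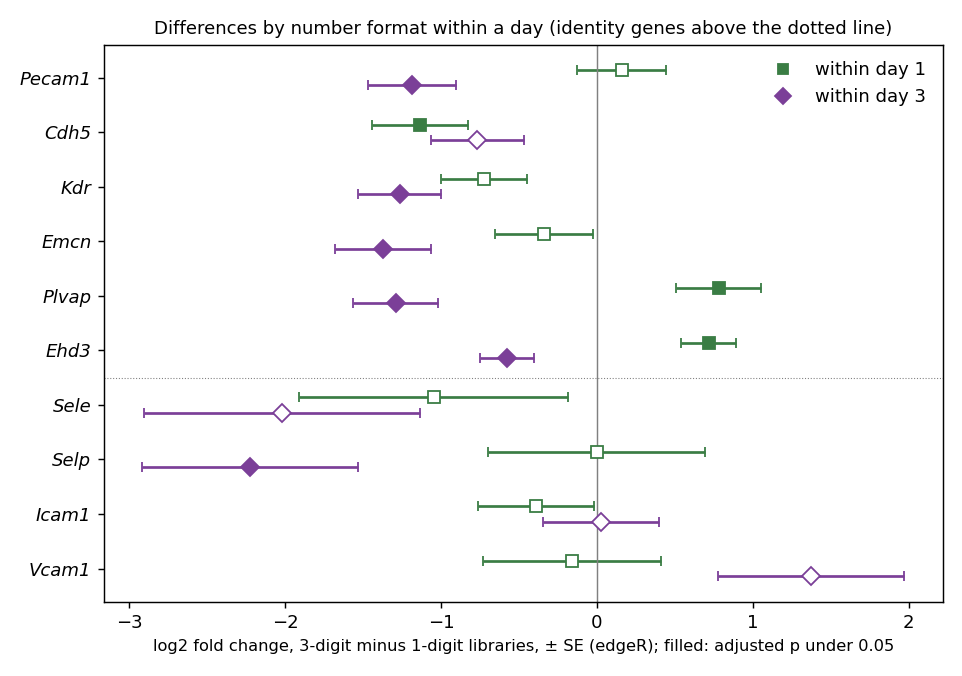
Log2 fold change of 3-digit minus 1-digit libraries (horizontal axis, points with bars of 1 SE from edgeR) within day 1 (squares) and within day 3 (diamonds) for the 10 genes, filled where the adjusted p was under 0.05. Plvap and Ehd3 lie on opposite sides of 0 on the 2 days, and 5 of 6 identity genes are filled below 0 at day 3.

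Because all day 0 libraries have 1-digit numbers, the day comparisons were repeated within that format, in the fit with 1 term for each day and format. At day 1 against day 0 (3 and 4 libraries), 7 of the 10 genes were higher and 1 lower, against 28.9% and 29.6% of all genes. Cdh5 rose by 1.89 ± 0.25 log2 units, Icam1 by 2.48 ± 0.32, Emcn by 0.89 ± 0.26, Pecam1 by 0.63 ± 0.24 and Vcam1 by 1.23 ± 0.48, Sele and Selp were also called higher, and Ehd3 fell, at a log2 fold change of -1.28 ± 0.15. At day 3 against day 0 (2 and 4 libraries) 8 were higher and none lower by edgeR, against 28.6% and 25.1% of all genes. Of these 8, 5 were identity genes, Pecam1 at 1.26 ± 0.26, Emcn at 1.18 ± 0.29, Plvap at 0.89 ± 0.25, Kdr at 0.76 ± 0.25 and Cdh5 at 0.75 ± 0.28, whereas Vcam1 was not called, at 0.51 ± 0.55. Between day 3 and day 1 (2 and 3 libraries) 3 of the 10 were called within this format, against 32% of all genes, Plvap (1.43 ± 0.27) and Ehd3 (1.43 ± 0.17) higher and Cdh5 (-1.14 ± 0.31) lower. In the libraries of 3 digits, day 3 against day 1 (3 and 2 libraries), edgeR called none of the 10, with 4 at an unadjusted p under 0.05, against 13.9% of all genes in either direction. There Cdh5 differed by -0.77 ± 0.30 with an adjusted p of 0.102, and Ehd3, called at 1.43 in the 1-digit libraries, by 0.14 ± 0.17 with an adjusted p of 0.628. With day 0 beside the 3-digit libraries of days 1 and 3 alone, Pecam1 was newly called higher at day 1 (0.79, adjusted p 0.0310 by edgeR). In that fit Kdr was lower at day 1 (-0.51, adjusted p 0.0429) and at day 3 (-0.51, adjusted p 0.0314). Against day 0, with the later libraries of each format fitted alone, Kdr at day 3 was called in opposite directions, at 0.77 with 1 digit and -0.51 with 3. Day 0 has 1 digit throughout, so that day and format cannot be told apart in the 3-digit fit. Plvap was 0.90 and -0.40, Emcn 1.20 and -0.19, Cdh5 0.77 and -0.013 and Pecam1 1.28 and 0.076, all 4 called with 1 digit and none of these 4 with 3 (edgeR, adjusted p from 0.224 to 0.967).

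Genes that ran most alike over the 14 libraries were listed for 3 of the 10, by Pearson's r of log2 CPM, as a description across libraries that share days and formats. For Cdh5 they were S1pr1, the sphingosine 1-phosphate receptor of endothelium, with r of 0.98, Ppp2r2a with 0.97 and Egfl7, an endothelial secreted factor, with 0.97. S1pr1 averaged 15.6, 44.7 and 17.5 CPM at days 0, 1 and 3. For Sele, at its low counts, they were Map3k6, Rasd1 and Plekho2, with r of 0.95, 0.94 and 0.94. For Vcam1 they were Ifi27, Sema3e and Csf1, with r of 0.89, 0.86 and 0.85, and Csf1, the macrophage growth factor, averaged 6.72, 30.5 and 24.4 CPM.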

How the data were processed

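RNA of whole mouse kidney was sequenced in 14 TruSeq libraries. Per the labels, the authors trimmed the reads with Trimmomatic, aligned them with STAR to mm10 (GRCm38) and deposited raw read counts per gene in 3 columns (unstranded and each strand). Tool versions are not given in the sources used here, nor is the gene annotation. Column 4, which held 98.5% to 98.7% of the stranded reads, was used. Lines naming no gene held 29.0% to 38.3% of all reads and were left out. Groups came from the labelled day.

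Counts were tested with edgeR 4.0.16 (R 4.3.3; TMM, filterByExpr, quasi-likelihood test, Benjamini-Hochberg over 14300 genes) with 1 term per day, and with 1 term per day and number format for the format contrasts. The script was tested on simulated data. CPM are TMM-scaled. Ratios to Cdh5 used an exact permutation test (scipy 1.17.1). Overlapping genes and lengths came from GENCODE on GRCm38. Named genes were the 10 members, the most raised and most lowered called gene of each of 15 lists against day 0 (mean at least 1 CPM), and the 3 most alike in pattern of Cdh5, Sele and Vcam1. Tie1 was the alternative reference of the ratios, and Selplg, Gp1ba, Vegfa and Angpt2 were named after their values were seen. Vegfd was matched under its older symbol, and Nectin2 was not matched. The members and lists were chosen with earlier results of these data known. Alternatives were another count column, scaling, filter, test (DESeq2 1.42.0), block, format term, format subsets and leaving out each library. Libraries of a day differed beyond sampling noise in all 26 pairs.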

Additional observations from a re-analysis of the deposited data

Results flagged for a closer look

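At day 0, replicate 4 stood apart from the other 3 libraries in Pecam1, at a log2 CPM of 5.94 against 5.43 to 5.46, and in Sele, at -2.07 against -3.09, where it held the 2 Sele reads of that day. It was the highest day 0 library for 4 of the 6 identity genes and 13 of 20 other pan-endothelial genes. The Pecam1 and Sele flags were 2 of 30 groups of a gene and a day, where chance gives about 1.5. The other 3 libraries tied at 0 Sele reads, where any read in 1 library is flagged, and that rate does not cover ties. Without day 0 replicate 4 the Pecam1 difference at day 1 was 0.84 in place of 0.70. No Sele read is then left at day 0, so that its fitted log2 values, 7.24 at day 1 and 6.63 at day 3 in place of 4.89 and 4.28, depend on the prior count and are no measure of the fold, and those of Selp were 6.17 and 6.38 in place of 5.23 and 5.44. The calls of both held, and the part of endothelial content in that library was not tested.

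The difference between 3-digit and 1-digit libraries changed from day 1 to day 3, by edgeR's test of that difference, in Pecam1 (-1.34), Plvap (-2.07) and Ehd3 (-1.29). The calls of Plvap and Ehd3 held with each library left out, from -2.30 to -1.79 and from -1.39 to -1.15. The call of Pecam1 ended without day 1 replicate 1, 2, 3 or 4 or day 3 replicate 5, with values from -1.63 to -1.003 over all left-out libraries. What the number format stands for was not tested.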

How the results depend on the processing

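The day differences of single genes were recomputed under 762 combinations of gene, comparison and setting, of which 678 kept direction and side of the threshold. For the format differences it was 556 of 624 and for the ratios to Cdh5 316 of 486, where a left-out library alone raises the smallest p the permutations can give. The number of genes called moved by over 1.5 times as follows. Keeping genes with at least 10 reads in every library, which drops Sele and Selp, left 3 of the 10 called at day 1 and 2 at day 3 against day 0. A fit on the 2 days alone, which tested 9 of the 10 against day 0, called 2 at day 3 against day 0 and 0 between day 3 and day 1 (edgeR, 2 at an unadjusted p under 0.05), where it called 831 genes of all. The 1-digit libraries alone gave 9 at day 1 and 8 at day 3, with 8119 genes of all at day 3 against day 0 and 5194 between day 3 and day 1. The 3-digit libraries alone gave 0 between day 3 and day 1 (edgeR, 4 at an unadjusted p under 0.05). Total counts without TMM moved the median of all genes at day 3 against day 0 to 0.19 and the share of higher calls to 73.8%, against 58.5% as reported, between day 3 and day 1 to 77.9% and by format at day 1 to 73.1%, against 53.6% and 53.1% as reported, and the change of the format difference to 34.99%, against 51.9%.

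The labels' replicate numbers did not pair the libraries: over 13 same-number pairs r ran from -0.175 to 0.261 with 4 over 0.1, and 4 of 14 libraries correlated best with their own number. With a replicate block 3 of the 10 were called at day 3 against day 0 (without Vcam1), 1 between day 3 and day 1, 1 by format at day 1 (2507 genes of all), 0 of the 10 and 0 genes of all by format at day 3 (edgeR, 2 and 2137 at an unadjusted p under 0.05, DESeq2 without the block calling 6 of the 10), and 1608 genes of all for the change of the format difference. At days 1 and 3 replicates 1 and 2 carry 3 digits and replicates 4 and 5 carry 1 digit. The block thus shares most of its levels with the number format, and the loss of format calls under it cannot be told apart from that overlap. The block turned Emcn (0.23), Selp (1.096) and Vcam1 (0.055) by format at day 1, Kdr at day 3 against day 0 (-0.29) and Selp between day 3 and day 1 (-0.385).

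With each library left out, genes of all and of the 10 called ran 4759 to 6533 and 5 to 8 (day 1 against day 0), 3338 to 5659 and 3 to 4 (day 3 against day 0), 1269 to 3350 and 0 to 3 (day 3 against day 1), 1997 to 5602 and 1 to 4 (format, day 1), 91 to 4771 and 0 to 8 (format, day 3), 1260 to 3148 and 2 to 4 (change of the format difference). Directions that turned on a library were those of Kdr at day 1 (-0.18 to 0.11) and day 3 (-0.33 to 0.29) and Plvap at day 3 (-0.061 to 0.47) against day 0. Between day 3 and day 1 they were Pecam1 (-0.38 to 0.17), Kdr (-0.32 to 0.33), Selp (-0.85 to 0.49) and Vcam1 (-0.40 to 0.58). By format they were Selp (-0.49 to 0.37) and Vcam1 (-0.40 to 0.37) at day 1, Icam1 at day 3 (-0.54 to 0.96), and for the change between days Cdh5 (-0.11 to 1.07), Kdr (-1.002 to 0.12), Sele (-1.99 to 1.29) and Icam1 (-0.15 to 1.35). The Emcn ratio to Cdh5 at day 3 against day 0 ran from -0.069 to 0.23. None of these was called as reported.

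Other turns were these. A format term gave Kdr 0.33 at day 1. The 1-digit libraries gave Kdr 0.24 at day 1, Ehd3 0.17 at day 3, and Emcn 0.28, Pecam1 0.61 and Vcam1 -0.74 between day 3 and day 1, and, relative to Cdh5 at day 3 against day 0, Kdr 0.0042, Plvap 0.23 and Vcam1 -0.14. The 3-digit libraries, beside the 1-digit day 0, gave Plvap 0.24 at day 1, and Cdh5 -0.013, Emcn -0.19, Kdr -0.51 and Plvap -0.40 at day 3. Between day 3 and day 1 they gave Plvap -0.64 and Selp -1.08. Unscaled totals gave Pecam1 0.12 between day 3 and day 1 and, by format at day 1, Selp 0.19 and Vcam1 0.035, and the unstranded column gave Selp 0.24. Without day 3 replicates 2 and 5, chosen after seeing the data, Kdr was -0.26 against day 0, and Kdr -0.20, Selp -0.54 and Vcam1 -0.43 against day 1. Relative to Tie1 at day 1 against day 0, Emcn was 1.21, Kdr 0.36, Pecam1 1.155, Plvap 0.23 and Vcam1 1.59, and between day 3 and day 1 Emcn was -1.03, Icam1 -1.30, Kdr -0.56, Pecam1 -0.79, Plvap -0.31, Sele -1.32, Selp -1.02 and Vcam1 -0.585. Of these, Emcn, Pecam1 and Vcam1 at day 1 and Emcn, Icam1 and Pecam1 between day 3 and day 1 passed, at an adjusted p of 0.033 (exact permutation test). The cause was not tested. The few reads of Sele and Selp at day 0 limit how well their folds are known.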
